A study of Mus musculus with 6 samples.

Results

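Cellular iron handling was described through 10 genes that take up, store, release or sense iron, and compared between PARP2 KO and WT pancreas. The genes were chosen by symbol for their known roles, and all 10 were found among the 29721 genes of the deposited count table. They were Tfrc, Slc11a2, Steap3 and Slc11a1 for uptake, Fth1 and Ftl1 for storage, Slc40a1 for export, Aco1 and Ireb2 for iron sensing, and Hmox1 for release of iron from heme. The samples were pancreas of Ela-myc mice aged 3 months, with 3 PARP2 KO animals and 3 WT animals and 1 library from each. All 6 animals carried the Ela-myc transgene, in which the elastase promoter drives Myc in the enzyme-secreting acinar cells, so that WT here means a tumour-prone pancreas with intact Parp2. The labels do not give the strain background, the part of Parp2 that was removed or the cells in which it was lost, and no result below refers to a mouse without the transgene.

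Most cells take up iron bound to transferrin, which enters by the transferrin receptor, is reduced in the endosome and crosses into the cytosol through a divalent metal transporter. Iron that is not used is held inside ferritin, a shell built of heavy and light chains, or leaves the cell through ferroportin. The sensors IRP1, encoded by Aco1, and IRP2, encoded by Ireb2, bind hairpins called iron responsive elements when iron is scarce. Binding in the 5′ UTR of ferritin and ferroportin transcripts blocks their translation, whereas binding in the 3′ UTR of Tfrc protects that transcript from decay. The level of ferritin protein therefore need not follow that of its transcript, and only transcripts were measured here. Acinar cells make large amounts of secreted protein, and macrophages recover iron from old red cells.

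The iron responsive elements are shown because they divide the members into those with an element at the 5′ end and those with one at the 3′ end. They were found in GENCODE vM21 transcripts (GRCm38) as a C, 5 bases, the 6-base loop CAGTGN with a last base other than G, and 5 bases, where at least 4 of the 5 facing bases can pair, G with T included. Transcripts were read on their own strand only, and each sequence below has 6 bases on either side, with the loop in capitals and T for U.
Fth1, 5′ UTR in exon 1, chr19:9982732-9982760, plus strand: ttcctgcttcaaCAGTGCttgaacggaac
Ftl1, 5′ UTR in exon 1, chr7:45459779-45459807, minus strand: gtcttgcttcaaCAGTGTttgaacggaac
Slc40a1, 5′ UTR in exon 1, chr1:45925465-45925493, minus strand: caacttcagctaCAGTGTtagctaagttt
Slc11a2, 3′ UTR in exon 16, chr15:100395153-100395181, minus strand: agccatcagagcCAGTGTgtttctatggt
Tfrc element 1, 3′ UTR in exon 19, chr16:32631219-32631247, plus strand: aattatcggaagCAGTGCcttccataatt
Tfrc element 2, 3′ UTR in exon 19, chr16:32631598-32631626, plus strand: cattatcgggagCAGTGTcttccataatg
Tfrc element 3, 3′ UTR in exon 19, chr16:32631663-32631691, plus strand: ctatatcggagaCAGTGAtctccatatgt
Tfrc element 4, 3′ UTR in exon 19, chr16:32631710-32631738, plus strand: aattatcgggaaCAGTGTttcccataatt

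These matches lay in 1 place each in Fth1, Ftl1, Slc40a1 and Slc11a2 and in 4 places in Tfrc, and the other 5 members had none of these letters in an annotated UTR. An element that departs from the pattern would be missed, so these are counts of matches and not of all elements. The Slc11a2 match was the only one of the 8 with 4 rather than 5 pairs. It lay in 1 of the 6 annotated coding transcripts of that gene, and counts per gene do not tell that transcript from the others. Over all protein-coding genes the same search matched a 5′ UTR in 0.694% and a 3′ UTR in 3.16% of genes, although UTR lengths differ between genes.

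Library totals ran from 28105021 to 32055565 counts, and every member had at least 658 counts in each library. Parp2, the gene removed, had 14.4, 12.4 and 13.6 CPM (counts per 1e6, after scaling with TMM factors) in PARP2 KO against 40.5, 36.4 and 37.5 CPM in WT. The pancreas label was checked on 27 digestive enzyme genes of acinar cells. They held 4.39%, 14.7% and 0.0180% of counts in PARP2 KO replicates 1, 2 and 3, against 28.1%, 30.1% and 23.1% in WT, so that PARP2 KO replicate 3 was nearly without them. That library was also low in islet markers, with a sum of 3.14 CPM against 1418 to 3370 CPM in WT, and in duct markers, with 12.7 CPM against 1209 to 1859 CPM in WT, so defining markers of all 3 pancreatic epithelial types were nearly absent from it. In PARP2 KO replicates 1 and 2 the islet sums were 237 and 601 CPM and the duct sums 109 and 523 CPM, also below WT. PARP2 KO libraries differed widely among themselves in these lists. Called lower were 0 of the 27 enzyme genes, 2 of 8 islet markers and 3 of 6 duct markers (edgeR adjusted p under 0.05). Marker lists of fat cells (10 of 10 genes higher), B cells (8 of 8) and T cells (8 of 8) stood far above WT in PARP2 KO, with summed levels of 8659 to 11394 CPM against 920.1 to 1948 CPM for fat. Over all genes tested, 28% were called higher and 25% lower in PARP2 KO (edgeR adjusted p under 0.05). In bulk tissue, fewer cells of a type and less RNA per cell cannot be told apart. Counts of Xist and of Y-linked genes marked PARP2 KO replicate 1 and WT replicates 1 and 2 as male and the other libraries as female.

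Tfrc, the transferrin receptor and the gate of iron entry, fell most among the members. The gene lies at chr16:32608920-32632794 on the plus strand (GRCm38, as for all positions here). It had 87.6, 86.5 and 74.0 CPM in PARP2 KO, against 285, 289 and 222 CPM in WT. The 3 PARP2 KO libraries lay close together and all below the lowest WT library. Means were 82.7 ± 7.55 CPM in PARP2 KO and 265 ± 37.4 CPM in WT (SD, n = 3 each), a 3.21-fold lower level. The log2 fold change was -1.68 (with SE 0.138 and edgeR quasi-likelihood adjusted p = 0.00201), and 7.37% of the 17652 genes tested changed by this value or a lower one. Without PARP2 KO replicate 3, the library nearly free of acinar, islet and duct markers, it was -1.59 (edgeR adjusted p = 0.00600). In females the difference in mean log2 CPM was -1.47 and in males -1.71, with 1 library on one side of each.

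Counts at Myc, the gene that drives this model, do not separate the transgene from the native gene. Myc had 83.4, 177 and 51.4 CPM in PARP2 KO and 256, 266 and 391 CPM in WT (log2 fold change -1.55 with SE 0.476 and edgeR adjusted p = 0.0366). Of 10 proliferation markers 9 were lower in PARP2 KO, against 25% of all genes tested. The summed level of the 10 was 465 to 573 CPM in PARP2 KO against 937 to 1075 CPM in WT. No proliferation marker was at 0 in either genotype. The part of these levels in the result for Tfrc was not tested.

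Slc11a2 encodes DMT1, the transporter that moves ferrous iron out of endosomes, and it fell as well. The gene lies at chr15:100387898-100425072 on the minus strand. It had 38.2, 44.2 and 38.2 CPM in PARP2 KO, against 89.6, 92.5 and 68.6 CPM in WT. As for Tfrc, WT replicate 3 was the lowest of its group and the groups did not overlap. Means were 40.2 ± 3.45 CPM in PARP2 KO and 83.6 ± 13.04 CPM in WT (SD, n = 3 each; log2 fold change -1.06 with SE 0.138 and edgeR adjusted p = 0.00290). Within females the difference in mean log2 CPM was -0.74 and within males -1.25. Exons of Slc11a2 overlap those of Gm5475 on the opposite strand, which had at most 3 counts in a library.

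Steap3 encodes the endosomal reductase that converts ferric to ferrous iron, best known from red cell precursors. It had 31.8, 50.05 and 21.6 CPM in PARP2 KO, against 33.3, 41.0 and 48.9 CPM in WT. The PARP2 KO libraries spread over more than the whole WT range, with replicate 2 at the top and replicate 3 at the bottom. The log2 fold change of -0.25 (with SE 0.320 and edgeR adjusted p = 0.524) did not pass the threshold of 0.05. Its sign turned to 0.10 when scaled by library totals alone and to 0.18 with the digestive enzyme level as a term, and it was 0.01 without PARP2 KO replicate 3. That enzyme level (median log2 CPM) was 9.41, 11.4 and 1.72 in PARP2 KO and 12.6, 12.7 and 11.7 in WT. Every PARP2 KO library lay below all WT libraries, so this term and genotype cannot be fully told apart.

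**Figure D1:**
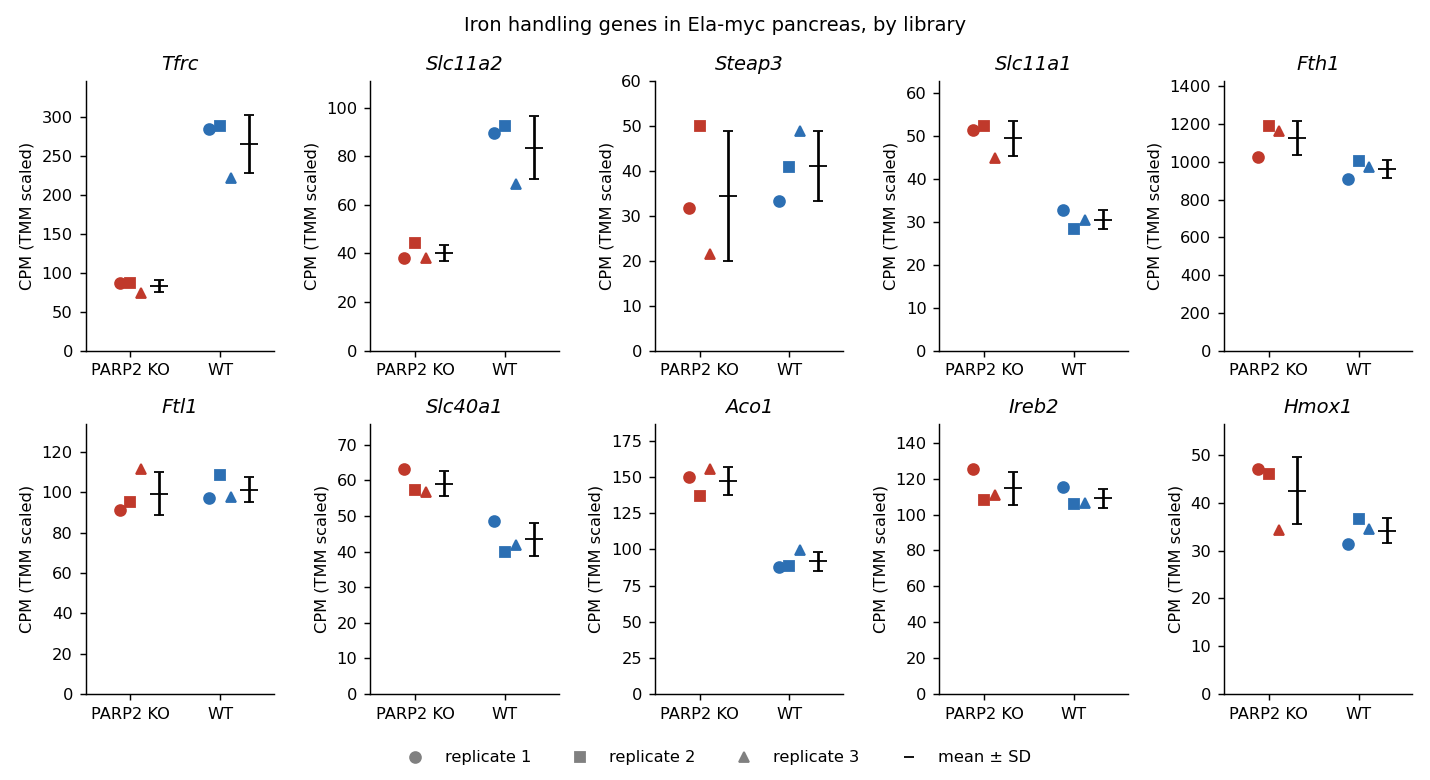
Expression of the 10 iron handling genes in each library, in CPM scaled with TMM factors on a linear axis that starts at 0, with PARP2 KO in red and WT in blue. Symbols mark replicates 1 to 3, and the black bars give mean and SD (n = 3 each). Tfrc and Slc11a2 lie lower and Slc11a1, Slc40a1 and Aco1 higher in every PARP2 KO library than in any WT library.

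Slc11a1 encodes NRAMP1, a relative of DMT1 that pumps metal ions out of the phagosomes of macrophages, and it moved the other way. Its locus is chr1:74375195-74386062 on the plus strand. It had 51.3, 52.3 and 44.8 CPM in PARP2 KO, against 32.7, 28.3 and 30.5 CPM in WT, with no overlap. Means were 49.5 ± 4.05 CPM in PARP2 KO and 30.5 ± 2.20 CPM in WT (SD, n = 3 each), 1.62-fold higher (log2 fold change 0.70 with SE 0.1 and edgeR adjusted p = 0.00344). It held without PARP2 KO replicate 3, at 0.78 (edgeR adjusted p = 0.00658).

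Slc11a1 is known from macrophages, whose markers stand beside it. Of 17 tested markers 7 were higher and 2 lower, against 28% and 25% of all genes tested. The summed level was 3642 to 4257 CPM in PARP2 KO against 2514 to 2806 CPM in WT. Marco made the largest part of this gap, at 831, 736 and 617 CPM in PARP2 KO against 131, 4.99 and 25.1 CPM in WT. C1qa, C1qb, C1qc and Mrc1 did not pass and had lower means in PARP2 KO. No macrophage marker was at 0 in either genotype. Higher were Csf1r, the growth factor receptor of macrophages, at 544, 504 and 451 CPM in PARP2 KO against 257, 219 and 239.5 CPM in WT, and Spic, a transcription factor of iron-recycling macrophages, at 20.1, 15.2 and 17.5 CPM against 6.65, 2.62 and 3.00 CPM in WT. Cd68 and Fcgr1 were lower, and the general marker Adgre1, which encodes F4/80, had 112.5, 135 and 83.0 CPM in PARP2 KO and 104, 103 and 121 CPM in WT. Of 8 neutrophil markers 6 were tested, with 2 higher and 0 lower, against 28% and 25% of all genes tested. Their summed level was 23.7 to 50.7 CPM in PARP2 KO against 10.7 to 19.4 CPM in WT. The part of macrophages or neutrophils in the result for Slc11a1 was not tested.

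Ferritin transcripts did not pass the threshold in either direction. Fth1, the heavy chain that oxidises iron for storage, had 1024, 1190.0 and 1165 CPM in PARP2 KO and 909, 1003 and 973 CPM in WT. Each PARP2 KO library lay above all WT libraries, by little for replicate 1. Means were 1126 ± 89.5 CPM in PARP2 KO and 962 ± 48.1 CPM in WT (SD, n = 3 each; log2 fold change 0.23 with SE 0.128 and edgeR adjusted p = 0.172). Ftl1, the light chain that helps to form the iron core, had 91.4, 95.2 and 111 CPM in PARP2 KO and 97.3, 108 and 97.8 CPM in WT. These ranges overlapped almost in full, with means of 99.3 ± 10.6 CPM in PARP2 KO and 101 ± 6.30 CPM in WT (SD, n = 3 each; log2 fold change -0.03 with SE 0.103 and edgeR adjusted p = 0.835). When scaled by library totals alone Fth1 passed at 0.62 (edgeR adjusted p = 0.0142), and Ftl1 stood at 0.38 (edgeR adjusted p = 0.0600).

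Both ferritin genes have processed copies in the genome, and how the counting treated reads shared with them is not known. Listed ferritin pseudogenes had at most 9 counts in a library. Exons of Ftl1 also overlap Gm10252 on the opposite strand, which had at most 1 count.

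Ratios within a library do not depend on scaling between libraries. There were 0.0856, 0.0727 and 0.0635 Tfrc counts per Fth1 count in PARP2 KO, against 0.314, 0.288 and 0.228 in WT. The 2 groups stood well apart, with a difference in log2 ratio of -1.90 (exact permutation test, two-sided, p = 0.10, which 3 libraries against 3 cannot go below). Fth1 counts per Ftl1 count were 11.2, 12.5 and 10.5 in PARP2 KO, against 9.34, 9.25 and 9.95 in WT. Every PARP2 KO library had the higher ratio, but the nearest pair of libraries differed little (difference in log2 ratio 0.26, two-sided exact permutation p = 0.10).

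**Figure D2:**
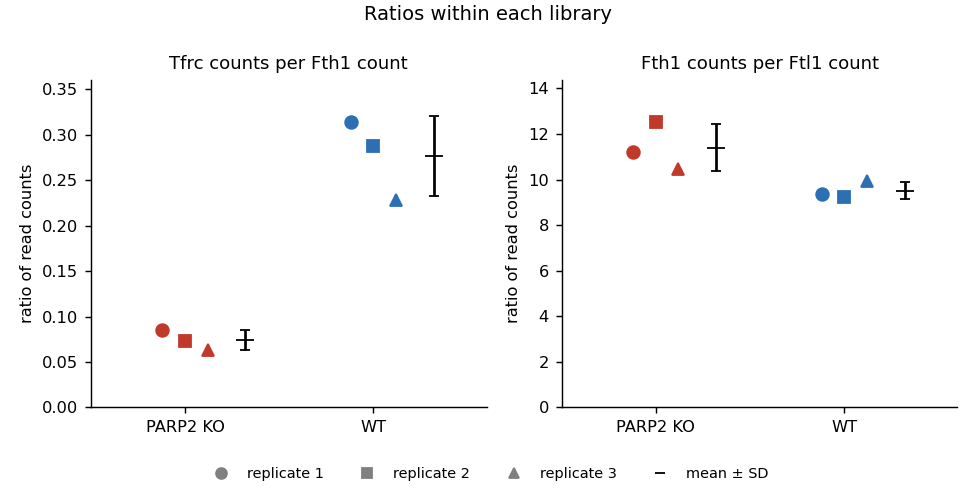
Ratios of read counts within each library, PARP2 KO in red and WT in blue, with symbols for replicates 1 to 3 and black bars for mean and SD (n = 3 each) on axes that start at 0. Tfrc counts per Fth1 count lie between 0.0635 and 0.0856 in PARP2 KO and between 0.228 and 0.314 in WT, while Fth1 counts per Ftl1 count differ less.

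Slc40a1 encodes ferroportin, the known exporter of iron from mammalian cells, abundant in macrophages that recycle red cells. Its locus is chr1:45908068-45926523 on the minus strand. It rose, with 63.2, 57.3 and 56.7 CPM in PARP2 KO against 48.6, 39.8 and 41.8 CPM in WT. The groups did not overlap, and WT replicate 1 was the nearest to PARP2 KO. Means were 59.1 ± 3.57 CPM in PARP2 KO and 43.4 ± 4.64 CPM in WT (SD, n = 3 each), 1.36-fold higher (log2 fold change 0.44 with SE 0.104 and edgeR adjusted p = 0.0139). The call ended without WT replicate 2, where the log2 fold change was 0.38 (edgeR adjusted p = 0.0527). The summed macrophage marker level given for Slc11a1, with Marco as the largest part of the gap, was also higher in PARP2 KO. However, 7 of the 17 markers were higher and 2 lower, against 28% and 25% of all genes tested, and the others did not pass. The part of that summed level in the result for Slc40a1 was not tested.

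Hmox1, heme oxygenase 1, frees iron from heme and is induced by heme and by oxidative stress. It had 47.0, 46.0 and 34.4 CPM in PARP2 KO, against 31.4, 36.7 and 34.5 CPM in WT. PARP2 KO replicates 1 and 2 were above all WT libraries, whereas replicate 3 lay inside the WT range. The log2 fold change was 0.31 (with SE 0.143 and edgeR adjusted p = 0.106). Hmox1 passed the threshold without PARP2 KO replicate 3, at 0.46 (edgeR adjusted p = 0.0248), with the digestive enzyme level as a term, at 0.53 (edgeR adjusted p = 0.0257), and when scaled by library totals alone, at 0.71 (edgeR adjusted p = 0.00892). As for Steap3, the enzyme term cannot be fully told apart from genotype.

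The paired sensors differed in their values. Aco1, whose product is a cytosolic aconitase that turns into IRP1 when it loses its iron-sulfur cluster, rose. Its locus is chr4:40143081-40198338 on the plus strand. It had 149.9, 137 and 155 CPM in PARP2 KO, against 87.8, 88.2 and 99.5 CPM in WT. The groups did not overlap, and the means were 147 ± 9.52 CPM in PARP2 KO and 91.8 ± 6.61 CPM in WT (SD, n = 3 each), 1.61-fold higher (log2 fold change 0.68 with SE 0.0914 and edgeR adjusted p = 0.00303). Ireb2, whose product IRP2 is controlled by degradation when iron is plentiful, had 125, 108 and 111 CPM in PARP2 KO and 115, 106 and 106 CPM in WT. The Ireb2 ranges overlapped, and the log2 fold change of 0.07 (with SE 0.0888 and edgeR adjusted p = 0.510) did not pass. When scaled by library totals alone Ireb2 passed at 0.48 (edgeR adjusted p = 0.0228). Whether the changes of Aco1 and Ireb2 differ was not tested.

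Set side by side, 3 of the 10 members were higher and 2 lower in PARP2 KO, and 5 did not pass. Without PARP2 KO replicate 3 there were 4 higher and 2 lower, since Hmox1 then passed. In that setting 23.5% of all genes tested were called higher and 20.4% lower. Over all 17652 genes tested, 28% were called higher and 25% lower, 53% in all, so a share of 5 in 10 is near the background and says nothing particular about iron genes. The median log2 fold change was 0.15 over the members and 0.02 over all genes. CPM ranges did not overlap between genotypes for 6 members, and for 68.1% of all genes tested. When scaled by library totals alone, the median over all genes moved to 0.42 and 6 members were higher and 2 lower. Under that scaling 42.3% of all genes tested were called higher and 12.2% lower. The 3 rises and 2 falls kept their direction under all 15 alternative settings, and the call of Slc40a1 without WT replicate 2 was the only one of theirs to end.

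**Figure D3:**
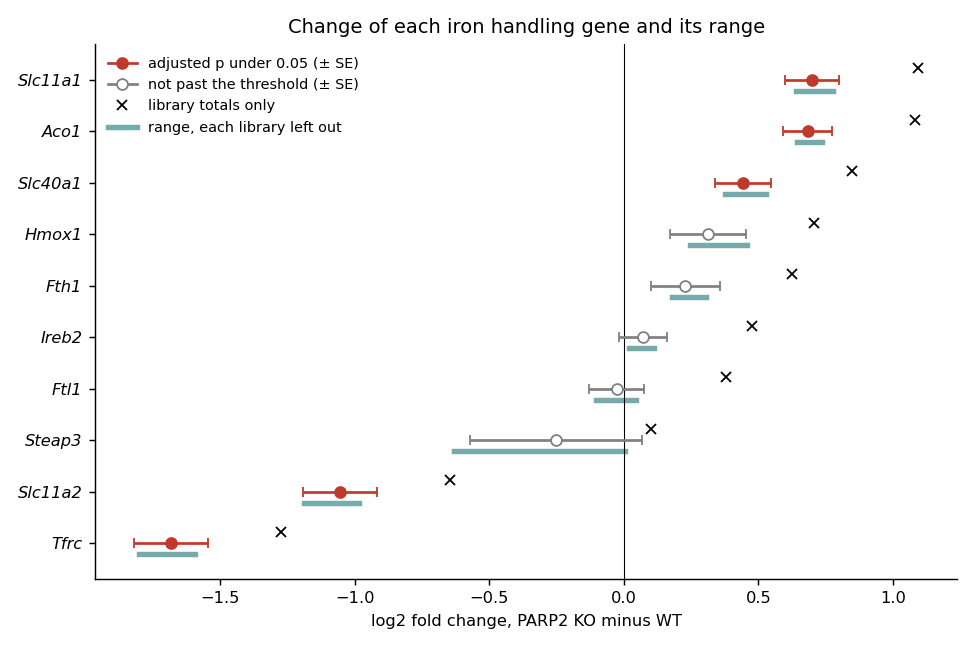
Log2 fold change (PARP2 KO minus WT) of each iron handling gene, with circles and bars for the estimate and its SE, filled red where the edgeR adjusted p was under 0.05. Teal bars give the range with each library left out in turn and crosses the value when scaled by library totals alone, which shifts every gene to the right. Tfrc and Slc11a2 stay below 0 and Slc11a1, Aco1 and Slc40a1 above 0 throughout.

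By the position of the elements printed above, the 2 members that fell, Tfrc and Slc11a2, were the 2 with a match in the 3′ UTR. The 3 with a match in the 5′ UTR were Slc40a1, which rose, and Fth1 and Ftl1, which did not pass. Aco1 and Slc11a1 rose without a match. With so few genes this is a description of the members, and no test was made of it.

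Per kilobase of exons in protein-coding transcripts, Fth1 was the most abundant member at 696 ± 55.3 CPM per kb in PARP2 KO and 595 ± 29.7 CPM per kb in WT (SD, n = 3 each). Ftl1 followed at 103 ± 11 CPM per kb in PARP2 KO and 105 ± 6.51 CPM per kb in WT. Tfrc ranked 8 of the 10 in PARP2 KO, at 15.6 ± 1.42 CPM per kb, and 3 in WT, at 50.05 ± 7.05 CPM per kb. Aco1 ranked 3 in PARP2 KO, at 38.5 ± 2.49 CPM per kb, and 4 in WT, at 24.0 ± 1.73 CPM per kb. Neighbours in the lower part of the order did not all differ beyond their spread: in PARP2 KO Slc11a1 stood at 21.3 ± 1.74 and Ireb2 at 19.6 ± 1.58 CPM per kb, and Slc40a1 at 17.04 ± 1.03 CPM per kb was near Tfrc. In WT Slc11a2 at 13.3 ± 2.08, Slc11a1 at 13.1 ± 0.946 and Slc40a1 at 12.5 ± 1.34 CPM per kb could not be ordered. Steap3 had the lowest mean in both, at 6.03 ± 2.52 CPM per kb in PARP2 KO and 7.18 ± 1.37 CPM per kb in WT. In PARP2 KO it could not be ordered against Slc11a2, at 6.41 ± 0.550 CPM per kb, and it was above Slc11a2 in replicate 2.

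A wider set of 66 iron and heme genes in 6 lists was read from the same test, of which 63 were matched by symbol and tested. Of these 13 were higher and 20 lower in PARP2 KO, against the background of 28% and 25% over all genes. The split depended on scaling and libraries: it was 24 higher and 6 lower when scaled by library totals alone, and 10 higher and 23 lower without PARP2 KO replicate 2. Without PARP2 KO replicate 1 fewer were called, 8 higher and 13 lower. Calls over all genes also fell there, to 3602 higher and 2543 lower. Only 8 were higher without WT replicate 2 or without WT replicate 3. Tf, Ftmt and Hjv were searched by these symbols only, gave no match and were not analysed here. Whether those genes are listed under other symbols was not checked.

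Among 12 genes of iron entry and reduction 2 rose and 4 fell, against 28% higher and 25% lower over all genes tested. The metal transporter genes Slc39a14 and Slc39a8 (ZIP14 and ZIP8), which can carry iron that is not bound to transferrin, fell. Slc39a14 averaged 32.2 ± 11.6 CPM in PARP2 KO and 91.3 ± 11.1 CPM in WT (SD, n = 3 each; log2 fold change -1.50, SE 0.273). Slc39a8 averaged 10.9 ± 3.13 CPM in PARP2 KO and 23.9 ± 4.10 CPM in WT (SD, n = 3 each; log2 fold change -1.13, SE 0.254). Steap4, a metal reductase gene well known from fat tissue, rose to 215 ± 57.4 CPM in PARP2 KO, against 64.8 ± 2.65 CPM in WT (SD, n = 3 each; log2 fold change 1.73, SE 0.203). Fat cell markers were higher in the same libraries, by the sums given above, and their part was not tested.

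Of 9 genes of export and its systemic control 2 rose and 1 fell, against 28% higher and 25% lower over all genes tested. Heph, which encodes the copper oxidase that works beside ferroportin, rose to 43.8 ± 4.20 CPM in PARP2 KO, against 11.9 ± 1.39 CPM in WT (SD, n = 3 each; log2 fold change 1.88 with SE 0.127 and edgeR adjusted p = 0.00201). Hfe, the hemochromatosis gene, rose to 49.0 ± 1.52 CPM in PARP2 KO, against 26.6 ± 1.61 CPM in WT (SD, n = 3 each; log2 fold change 0.88, SE 0.0824). Hamp2, a hepcidin gene, was called lower at 0.705 ± 0.928 CPM in PARP2 KO against 6.11 ± 2.25 CPM in WT (SD, n = 3 each; edgeR adjusted p = 0.0481). That call ended without PARP2 KO replicate 1, without any 1 of the WT libraries and when scaled by library totals alone, with edgeR adjusted p between 0.0507 and 0.145.

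Of 5 genes of iron chaperoning and ferritin turnover 1 rose and 2 fell, against 28% higher and 25% lower over all genes tested. Pcbp1, which encodes a chaperone that brings iron to ferritin, fell to 148 ± 25.2 CPM in PARP2 KO, against 266 ± 19.0 CPM in WT (SD, n = 3 each; log2 fold change -0.84, SE 0.143). Ncoa4, the receptor that sends ferritin to lysosomes for release of its iron, rose to 9.77 ± 1.37 CPM in PARP2 KO, against 5.35 ± 0.294 CPM in WT (SD, n = 3 each; log2 fold change 0.87, SE 0.163). Pcbp2 was called lower, with a log2 fold change of -0.39 (SE 0.0930). Its call ended without PARP2 KO replicate 3 and without WT replicates 1 or 2 (edgeR adjusted p between 0.0502 and 0.0569), and its log2 fold change was 0.01 when scaled by library totals alone (edgeR adjusted p = 0.968).

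Of 14 heme genes 5 were higher and 3 lower, against 28% and 25% of all genes tested. Blvrb, a biliverdin reductase gene, rose to 32.1 ± 1.07 CPM in PARP2 KO, against 16.1 ± 1.33 CPM in WT (SD, n = 3 each; log2 fold change 0.99, SE 0.0947). Cpox, an enzyme gene of heme synthesis, fell to 29.0 ± 8.44 CPM in PARP2 KO, against 78.4 ± 5.17 CPM in WT (SD, n = 3 each; log2 fold change -1.43, SE 0.207). Alas1, the first enzyme of heme synthesis in most tissues, was called higher at 0.89 (SE 0.221), a call that ended without WT replicates 2 or 3 (edgeR adjusted p = 0.0550 and 0.0575). Of 12 erythroid markers 8 were tested and 3 were higher, against 28% of all genes tested. The sums over the 12 were 159, 464 and 198 CPM in PARP2 KO against 141, 62.0 and 142 CPM in WT. Hbb-bs made the largest part of the highest sum, at 287 CPM in PARP2 KO replicate 2 against 95.1 and 96.2 CPM in replicates 1 and 3. The globin genes Hba-a1, Hba-a2, Hbb-bs and Hbb-bt did not pass, and Rhag was at 0 in all WT libraries. Alas2 stands in both the heme and the erythroid list, and the part of red cell precursors in the heme genes was not tested.

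Of 15 genes of mitochondrial iron and iron-sulfur cluster assembly 7 fell and 1 rose, against 25% lower and 28% higher over all genes tested. The mitochondrial iron importer gene Slc25a28 fell to 36.6 ± 2.67 CPM in PARP2 KO, against 53.9 ± 1.88 CPM in WT (SD, n = 3 each; log2 fold change -0.56, SE 0.0861). Glrx5, a carrier of iron-sulfur clusters, and Nfs1, which supplies their sulfur, had log2 fold changes of -0.52 (SE 0.0891) and -0.56 (SE 0.108), both called lower. When scaled by library totals alone these 3 calls ended, with log2 fold changes between -0.16 and -0.12. The NRF2 and BACH1 list holds regulators and targets of the pathway that also controls Hmox1. Of its 8 genes 2 rose and 3 fell, against 28% higher and 25% lower over all genes tested. Txnrd1, thioredoxin reductase, fell to 76.1 ± 10.9 CPM in PARP2 KO, against 155 ± 10.1 CPM in WT (SD, n = 3 each; log2 fold change -1.03, SE 0.122), and Gclm, a subunit of the enzyme that starts glutathione synthesis, fell by 0.52 (SE 0.0913). Nqo1, a quinone reductase, rose by 1.03 (SE 0.244). The Gclm call ended when scaled by library totals alone (edgeR adjusted p = 0.440) and that of Nqo1 without PARP2 KO replicate 1 (edgeR adjusted p = 0.0543).

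**Figure D4:**
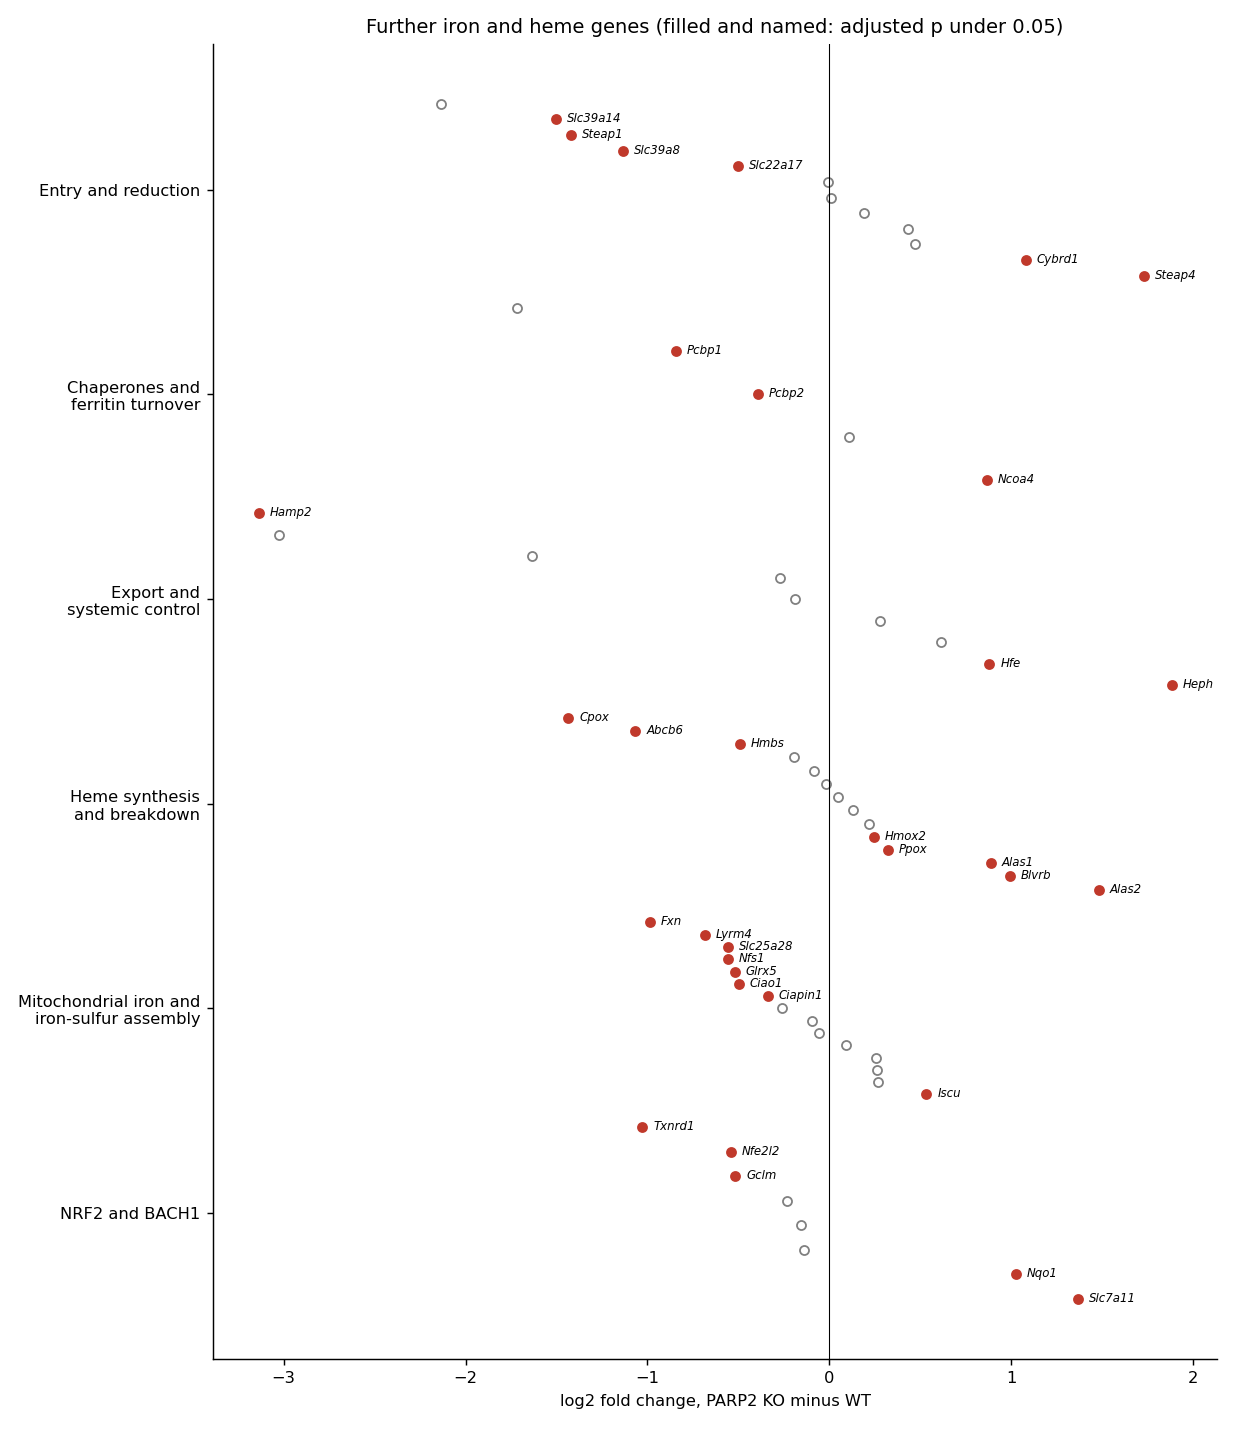
Log2 fold change (PARP2 KO minus WT) of 63 further iron and heme genes, 1 circle per gene, grouped by function and spread vertically by rank for legibility. Filled and named circles passed the edgeR adjusted p of 0.05 and open circles did not. Genes lie on both sides of 0 in every group, with Heph furthest to the right and Hamp2 furthest to the left.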

How the data were processed

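RNA of 6 pancreas samples was sequenced as stranded mRNA libraries, per the labels' protocols, which speak of tumours where the tissue label says pancreas. The name given to the deposited counts calls the 6 samples preneoplastic. The authors deposited whole-number counts per gene and log2 values, and the tools named in the submitters' processing notes are STAR 2.5.3a, FastQC 0.11.5 and DESeq2 1.28.1, with GRCm38 (mm10) as the build. The counting program, its strand setting and its treatment of shared reads were not given in the sources used here. The deposited log2 values equalled log2 of count over DESeq2 size factor plus 1, within 5.33e-14. No replicate pair agreed within sampling noise (chi-square per degree of freedom 29.1 to 461). The series' design text says that the samples are different animals.

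Counts were tested with edgeR 4.0.16 in R 4.3.3 (quasi-likelihood, robust, TMM, default expression filter, genotype as the only term, Benjamini-Hochberg over 17652 genes, threshold 0.05). SE is the log2 fold change over the square root of F. Ratios were compared by exact permutation in scipy 1.17.1. Named genes were Parp2, the 10 members and up to 3 called genes of smallest p in each further list. Macrophage, proliferation and other genes outside that rule were named after their values were seen. Members and lists were chosen with earlier results of these data known. Alternatives were other scalings, filters and terms, DESeq2 1.42.0, limma 3.58.1 on the log2 values, and leaving out each library. All 15 were read for the members. For Parp2 and the further genes only DESeq2 size factors, library totals alone and leaving out each library were read. On simulated counts of 17272 genes, 30 of the 100 with a 2-fold change and 76 of the 100 with a 4-fold change were called, with 14 false calls. No other genes were changed there, whereas 53% of genes were called in the data. With so few changed genes the correction for many tests is stricter, so these shares are not the sensitivity of the test here. Elements and overlaps came from GENCODE vM21, whose positions for all 10 members equal those in the files. Promoters and proteins were not used here.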

Additional observations from a re-analysis of the deposited data

How the results depend on the processing

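No paired analysis was possible because the labels give animal numbers that differ between genotypes and mark no shared litter or batch. With library totals only, 7475 genes were higher and 2160 lower, against 4938 and 4415 with TMM, so that 77.6% of calls were higher against 52.8%; 6 members rose and 2 fell, and 24 further genes rose and 6 fell. Under that scaling Ftl1 stood at 0.38, Steap3 at 0.10 and Pcbp2 at 0.0060 (log2), all with the sign turned. Steap3 was also positive with the digestive enzyme level as a term (0.18) and without PARP2 KO replicate 3 (0.0059), and Ftl1 without PARP2 KO replicate 1 (0.043) or WT replicate 2 (0.018); with each library left out Steap3 ran from -0.63 to 0.0059 and Ftl1 from -0.11 to 0.043. With the enzyme level as a term 3333 genes were higher and 2741 lower. That level was lower in every PARP2 KO library than in any WT library, so this fit cannot fully separate it from genotype. Leaving out each library in turn gave 3602 to 5125 genes higher and 2543 to 5032 lower, 2 to 4 members higher and 2 lower, and 8 to 10 further genes higher and 13 to 23 lower. The Tfrc to Fth1 log2 ratio difference ran from -2.03 to -1.80 and that of Fth1 to Ftl1 from 0.19 to 0.32, or 0.26 with pseudogene counts added; with 2 against 3 libraries the smallest exact p is 0.20. The causes were not tested. Fth1 and Hmox1 did not pass, which does not show that they did not change, and other genes with changes of like size, such as Hmox2 (0.24, edgeR adjusted p = 0.0341), did. Pooled over all genes, counting error was small beside the spread between animals. Genes with high counts weigh most in that pooled value, and it was not worked out for single members.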
